A study of Mus musculus with 18 samples.

Results

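The chains of the interferon and interleukin-10 family receptors were followed through the mouse kidney: 9 genes, chosen by name from the deposited tables, of 55385 genes in all. Of these, Ifnar1, Ifnar2, Ifngr2 and Il10rb lie on the part of chromosome 16 that is duplicated in Dp16 mice. Their partner chains Ifngr1, Ifnlr1, Il10ra, Il22ra1 and Il20rb are coded elsewhere. All 9 passed the filter on low counts, as did 17575 genes in all. PolyA RNA of whole kidneys was sequenced from 18 adult mice aged 17.1 to 18 weeks, in 3 groups of 6 with 3 males and 3 females each. One group was wild-type on C57BL/6J, another was Dp16, and the last was Dp16 2xIFNRs; none was treated. Dp16 is a germline duplication in every cell, used as a model of trisomy 21. Dp16 2xIFNRs animals share the duplication but have their interferon receptor genes back at 2 copies. As background, that is done with a deletion of the receptor cluster, and the labels do not describe the allele. The comparison asks how the dosage of these chains sets their transcript levels, singly and relative to their partners.

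These receptors belong to the class II cytokine receptor family, in which a ligand brings a pair of different chains together, and the kinases bound to the chains then activate STAT factors. Ifnar1 and Ifnar2 form the type I interferon receptor, and Ifngr1 and Ifngr2 the interferon gamma receptor. Il10rb is a shared chain: it pairs with Ifnlr1 for type III interferons, with Il10ra for interleukin-10 and with Il22ra1 for interleukin-22. Il22ra1 also pairs with Il20rb for interleukin-20 and interleukin-24. Interleukin-10 acts mainly on leukocytes, whereas type III interferons and interleukin-22 act mainly on epithelia.

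Library totals ranged from 42157790 to 57814587 counts, and mitochondrial genes took 6.34% to 10.9% of them. Nephron markers were abundant, with summed levels of proximal tubule markers of 21047 to 31922 CPM, counts scaled to the library size. All 18 macrophage and dendritic cell markers passed the filter, with summed levels of 191 to 270 CPM in wild-type, 299 to 365 CPM in Dp16 and 285 to 374 CPM in Dp16 2xIFNRs. Adrenal markers stood apart in 1 wild-type female (replicate 5), with a sum of 81.4 CPM against 0.254 to 9.96 CPM in the others. Sex was a term in every comparison of genotypes, and a gene was called at an edgeR adjusted p under 0.05 over all 17575 genes.

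In the wild-type kidney the chains fell into an abundant and a scarce set. Levels are given as RPKM, reads per kilobase of gene scaled to the library total, which allows genes to be compared. Il10rb averaged 19.9 ± 5.95 RPKM (SD, n = 6), Ifngr1 17 ± 1.57, Ifnar2 9.09 ± 0.940, Ifnar1 8.57 ± 1.25 and Ifngr2 7.43 ± 0.412. The scarce set held Il10ra at 0.848 ± 0.205 RPKM, Il22ra1 at 0.739 ± 0.450, Ifnlr1 at 0.524 ± 0.0995 and Il20rb at 0.148 ± 0.0986. Between neighbours in this order the ranges of the animals did not overlap at 3 steps: Ifngr1 above Ifnar2, Ifngr2 above Il10ra, and Ifnlr1 above Il20rb. The other neighbours overlapped. Thus the ligand-specific chains that use Il10rb were each far scarcer than Il10rb itself. The order within the abundant set rests on the gene length used. With all annotated exons as the length, chosen after the data were seen, Il10rb averaged 9.68 and Ifngr1 12.6 on the same scale. Counts were low for Il20rb (7 to 46 per library) and Il22ra1 (13 to 213).

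**Figure D1:**
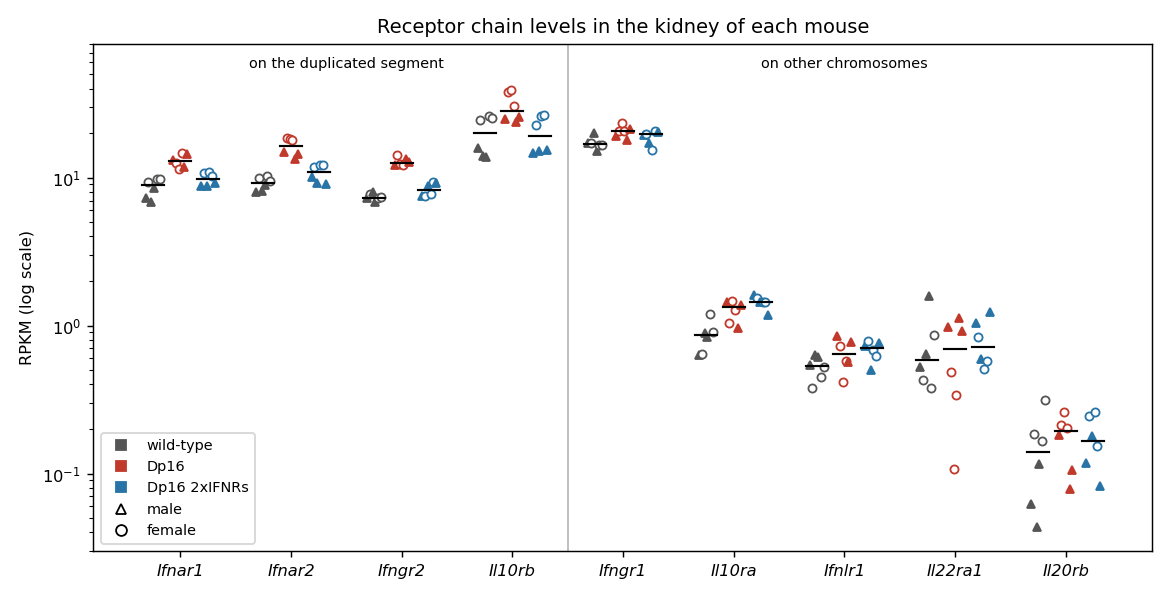
RPKM (log scale) of the 9 receptor chains in each of the 18 kidneys, with 1 symbol per mouse (triangles males, circles females), colours for genotypes and black bars for group medians. In Dp16 the 4 chains of the duplicated segment sit above both other groups within each sex, and Il22ra1 and Il20rb scatter most.

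The 4 chains on the duplicated segment were higher in Dp16. In Dp16 2xIFNRs they were back near the wild-type level, with log2 folds of -0.01 to 0.20 against it. They occupy 192.8 kb of chromosome 16, from 91372783 to 91565623 (GRCm38), in the order Ifnar2, Il10rb, Ifnar1 and Ifngr2, all protein-coding on the plus strand. In Dp16 against wild-type 5 of the 9 chains were called, all higher, where 4.23% of all genes tested were called, 3.17% higher and 1.06% lower. In CPM scaled by TMM, 3 of the 9 had Dp16 ranges wholly above wild-type, where this held for 1.06% of all genes tested (0.239% wholly below). In Dp16 2xIFNRs against Dp16 3 of the 9 were called, all lower, where 0.0171% of all genes tested were called (0% higher and 0.0171% lower). Ranges lay wholly below Dp16 for 3 chains, against 0.0455% of all genes tested below and 0.0341% above. Ifnar2, Ifngr2 and Il10rb were the only 3 genes of 17575 that passed the threshold in that edgeR comparison. DESeq2 called 4 genes there, the same 3 and Ifnar1.

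Ifnar2, the type I chain that binds ligand most tightly and carries the STAT docking tail, changed most steadily. It had 7.94 to 10.2 RPKM in wild-type (median 9.16), 13.3 to 18.5 in Dp16 (median 16.4) and 9.0 to 12.1 in Dp16 2xIFNRs (median 10.9). No Dp16 animal overlapped either other group. The log2 fold was 0.80 ± 0.05 (SE, n = 6 per group, edgeR adjusted p = 5.488e-08) in Dp16 against wild-type. Dp16 2xIFNRs against Dp16 gave -0.60 ± 0.05 (edgeR adjusted p = 7.497e-06). Against wild-type, Dp16 2xIFNRs was still 0.20 ± 0.05 higher (edgeR adjusted p = 0.03685), the only one of the 4 chains called there. In 12 of 22 alternatives that last difference missed the threshold, at an adjusted p no higher than 0.2797. Of these 9 each left out 1 library: wild-type replicates 1, 2, 3 and 6 and Dp16 2xIFNRs replicates 1 to 5.

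Ifnar1, its partner that binds the kinase Tyk2, had 6.89 to 9.77 RPKM in wild-type (median 8.89), 11.4 to 14.8 in Dp16 (median 12.9) and 8.79 to 10.9 in Dp16 2xIFNRs (median 9.73). Here too all 6 Dp16 animals stood above all 12 others. The log2 fold was 0.58 ± 0.08 in Dp16 against wild-type (edgeR adjusted p = 0.0001847). Dp16 2xIFNRs against Dp16 gave -0.42 ± 0.08, which missed the threshold (edgeR adjusted p = 0.1127, unadjusted p = 2.564e-05). It passed in 4 of 22 alternatives, among them DESeq2 and the fit without Dp16 replicate 3, and the adjusted p ranged from 0.0006375 to 0.5237. Dp16 2xIFNRs against wild-type was 0.16 ± 0.08 (edgeR adjusted p = 0.2885).

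Ifngr2, the signal-transducing chain of the interferon gamma receptor that binds Jak2, had 6.84 to 8.01 RPKM in wild-type (median 7.33), 12.1 to 14.1 in Dp16 (median 12.6) and 7.50 to 9.28 in Dp16 2xIFNRs (median 8.25). The spread within groups was small and Dp16 overlapped neither other group. It was 0.76 ± 0.07 higher in Dp16 than in wild-type on the log2 scale (edgeR adjusted p = 2.838e-06). The change from Dp16 to Dp16 2xIFNRs was -0.63 ± 0.07 (edgeR adjusted p = 0.0001873), and from wild-type to Dp16 2xIFNRs 0.13 ± 0.07 (edgeR adjusted p = 0.3328).

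Il10rb, the shared chain, had 13.9 to 26.1 RPKM in wild-type (median 20.1), 23.9 to 39.1 in Dp16 (median 28.1) and 14.7 to 26.5 in Dp16 2xIFNRs (median 19.1). The groups overlapped, and females were higher than males in each. Within each sex all 3 Dp16 animals stood above the 3 of either other group. The log2 fold was 0.60 ± 0.07 in Dp16 against wild-type (edgeR adjusted p = 5.102e-05) and -0.62 ± 0.07 in Dp16 2xIFNRs against Dp16 (edgeR adjusted p = 0.0002237). Without sex as a term neither passed (edgeR adjusted p = 0.1375 and 0.9999). Dp16 2xIFNRs differed from wild-type by -0.01 ± 0.07 (edgeR adjusted p = 0.9511), with a 95% permutation interval of -0.12 to 0.09.

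A change from 2 to 3 copies alone would give a log2 fold of 0.585 (1.5 times). Permutation intervals (95%, animals permuted within sex) of the Dp16 difference from wild-type held that value for Ifnar1 (0.365 to 0.790) and Il10rb (0.415 to 0.750). For Ifnar2 (0.695 to 0.890) and Ifngr2 (0.635 to 0.890) the interval lay above it. Library scaling moved these differences by 0.032, the shift of the median gene when total counts replaced TMM. In Dp16 2xIFNRs against Dp16 the intervals were -0.595 to -0.24 for Ifnar1 and -0.67 to -0.53 for Ifnar2. They were -0.805 to -0.45 for Ifngr2 and -0.76 to -0.43 for Il10rb. Each of these held a fall of 0.585, the step from 3 copies to 2.

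**Figure D2:**
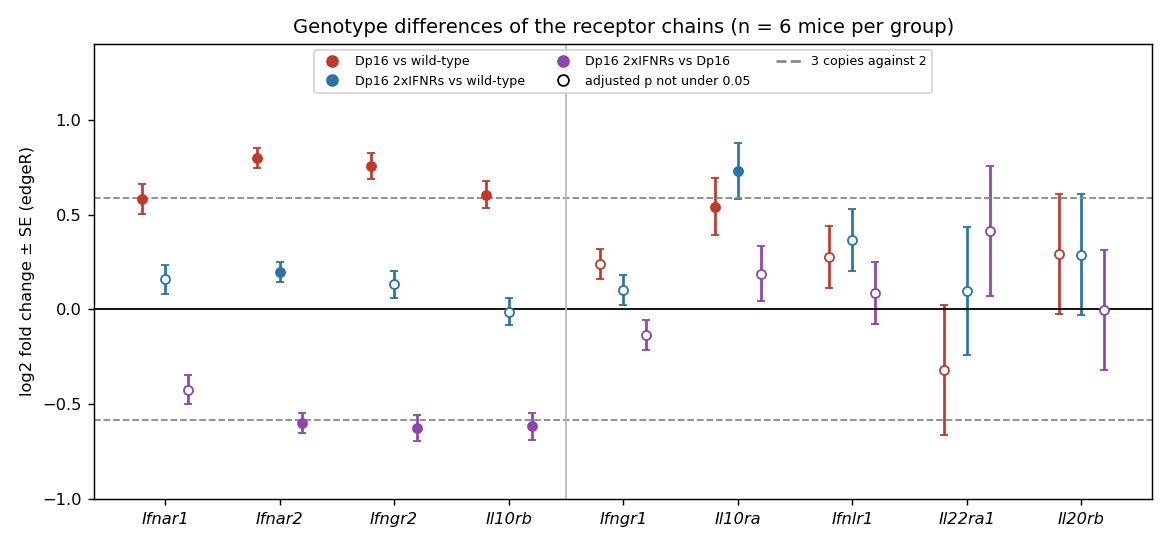
Log2 fold changes with standard errors (edgeR, n = 6 mice per group) of the 9 chains in the 3 genotype comparisons, where filled symbols passed an adjusted p of 0.05 and dashed lines mark 3 copies against 2. The 4 segment chains sit at 0.58 to 0.80 in Dp16 and at -0.01 to 0.20 in Dp16 2xIFNRs against wild-type, whereas Il10ra is as high or higher in Dp16 2xIFNRs.

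Because the chains of the segment were higher together in Dp16, the sequence just upstream of the start is shown for 3 of the 4. The 250 bases come from RefSeq's promoter table (GRCm38.p6, plus strand), which matched 7 of the 9 chains and has no entry for Il10rb. They are chr16:91372533-91372782 for Ifnar2, chr16:91484965-91485214 for Ifnar1 and chr16:91546809-91547058 for Ifngr2. Capitals mark matches to any of 7 short motifs searched on both strands, some of which overlap.
Ifnar2: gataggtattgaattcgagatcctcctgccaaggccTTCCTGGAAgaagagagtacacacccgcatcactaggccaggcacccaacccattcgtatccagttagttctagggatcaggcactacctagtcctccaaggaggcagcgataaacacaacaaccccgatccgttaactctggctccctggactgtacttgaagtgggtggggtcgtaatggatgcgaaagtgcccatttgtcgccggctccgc
Ifnar1: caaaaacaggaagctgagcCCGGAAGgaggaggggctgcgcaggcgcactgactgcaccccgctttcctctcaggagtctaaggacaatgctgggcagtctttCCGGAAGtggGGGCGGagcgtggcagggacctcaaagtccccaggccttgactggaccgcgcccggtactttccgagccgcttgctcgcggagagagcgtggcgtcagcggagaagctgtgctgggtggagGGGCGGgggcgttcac
Ifngr2: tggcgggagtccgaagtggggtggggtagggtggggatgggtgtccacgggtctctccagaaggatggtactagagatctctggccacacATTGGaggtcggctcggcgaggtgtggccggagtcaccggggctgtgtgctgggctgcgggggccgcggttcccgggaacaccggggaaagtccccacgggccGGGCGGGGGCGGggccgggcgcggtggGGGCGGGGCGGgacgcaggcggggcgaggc
The Ifnar2 stretch held 1 match to TTCNNNGAA, the palindromic form bound by STAT dimers (GAS), which 7.02% of 32851 promoters held. Ifnar1 had 2 matches to CCGGAAG, an ETS factor core (6.91% of promoters), and 2 to the GC box GGGCGG (32.74%). In Ifngr2 there were 4 GC boxes, in 2 pairs that abut or overlap, and 1 CCAAT box (33.85% of promoters). None of the 7 chains had a match to the interferon response core, GAAA on both sides of any 2 bases (2.98% of promoters), to TATAAA (12.37%) or to CACGTG (6.02%) in this window. CpG dinucleotides numbered 11 in Ifnar2, 19 in Ifnar1 and 25 in Ifngr2, against a median of 6 over all promoters. No motif of the 7 was found in all 3 windows, and a match is only a description.

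Genes beside the cluster were higher in both Dp16 and Dp16 2xIFNRs than in wild-type. Tmem50b, a membrane protein gene 8.9 kb beyond Ifngr2, was 0.55 ± 0.09 higher in Dp16 (log2, edgeR adjusted p = 0.001021) and 0.47 ± 0.09 higher in Dp16 2xIFNRs (edgeR adjusted p = 0.002988) than in wild-type. Gart, a purine synthesis enzyme gene 55.6 kb beyond, was 0.47 ± 0.05 and 0.51 ± 0.05 higher. On the other side the nearest tested gene was Paxbp1, 328.2 kb away, at 0.36 ± 0.11 in both comparisons (edgeR adjusted p = 0.06817 and 0.06837). Among 15 tested flanking genes 10 were higher in Dp16 and 13 in Dp16 2xIFNRs than in wild-type, where 3.17% of all genes tested were called higher in each. Their median log2 folds were 0.51 and 0.52, against -0.01 and 0.01 over all genes tested. Between Dp16 2xIFNRs and Dp16 edgeR called 0 of the 15, where 0.0171% of all genes tested were called. None had an unadjusted p under 0.05, and the median was 0.04. Both comparisons use the same wild-type animals.

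**Figure D3:**
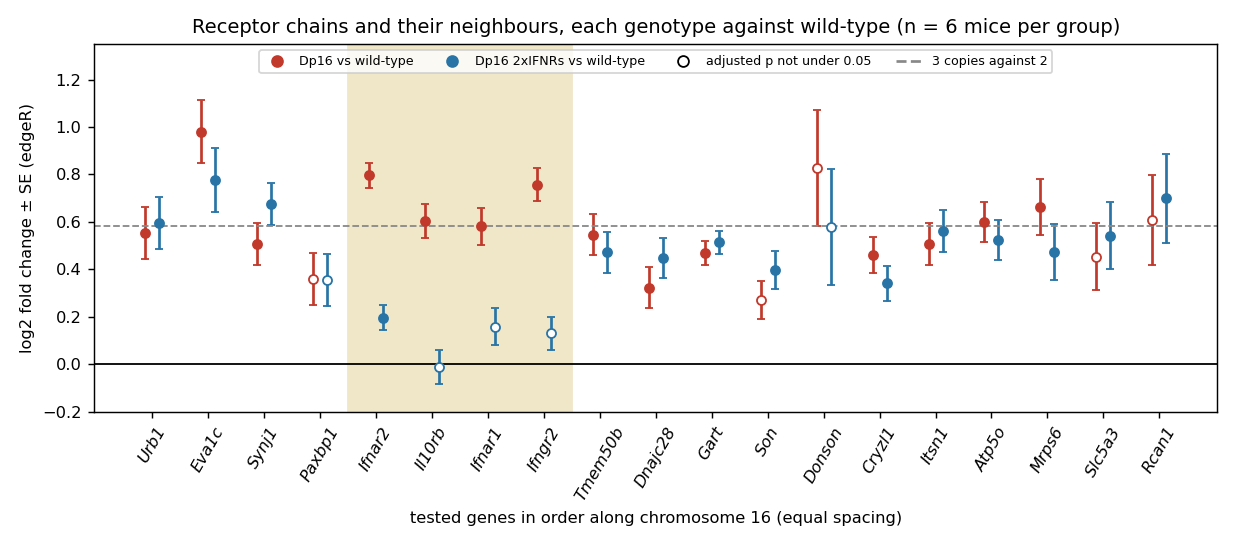
Log2 fold changes with standard errors (edgeR, n = 6 mice per group) against wild-type for the receptor chains (shaded) and the tested neighbours in their order along chromosome 16, equally spaced. Neighbours on both sides lie at 0.27 to 0.98 in both genotypes, and inside the shaded cluster the Dp16 2xIFNRs values fall to between -0.01 and 0.20.

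The cluster holds 12 annotated genes in all. Gm21970, annotated across the end of Ifnar2 and the start of Il10rb on the same strand, shares 9.5% of the exonic bases of Ifnar2 and 14.9% of those of Il10rb. It had 0 counts in every library, and reads in the shared bases may have gone uncounted for those chains. How the counting treated them is not given in the sources used here.

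The partner chains on other chromosomes were mostly not called between genotypes. Ifngr1 (chromosome 10, 19591949 to 19610229), the chain that binds interferon gamma, had 15.1 to 19.9 RPKM in wild-type (median 16.8), 18.0 to 23.3 in Dp16 (median 20.8) and 15.3 to 20.6 in Dp16 2xIFNRs (median 19.6). Dp16 animals tended to the upper end, with overlap. The log2 fold was 0.24 ± 0.08 in Dp16 against wild-type and missed the threshold (edgeR adjusted p = 0.09642), and without wild-type replicate 3 it passed (edgeR adjusted p = 0.04339, range over 22 alternatives 0.04339 to 0.2538). The other comparisons gave 0.10 and -0.14.

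Il10ra (chromosome 9, 45253837 to 45269149), the ligand-binding chain for interleukin-10, was the partner chain that differed. It had 0.631 to 1.19 RPKM in wild-type (median 0.864), 0.965 to 1.46 in Dp16 (median 1.33) and 1.19 to 1.61 in Dp16 2xIFNRs (median 1.45). Dp16 overlapped wild-type, and 5 of 6 Dp16 2xIFNRs animals lay above every wild-type animal on this scale. In CPM scaled by TMM the Dp16 2xIFNRs range lay wholly above wild-type, by a narrow gap (lowest 4.22 against highest 4.04). On that scale this held for 1.04% of all genes tested (0.529% wholly below). In Dp16 2xIFNRs against wild-type, where 2 of the 9 chains and 4.79% of all genes tested were called (3.17% higher and 1.61% lower), it was 0.73 ± 0.15 higher (log2, edgeR adjusted p = 0.006648). In Dp16 it was 0.54 ± 0.15 higher (edgeR adjusted p = 0.0433), which missed the threshold in 12 of 22 alternatives (adjusted p at most 0.1049). Of these 9 left out 1 library: wild-type replicates 1, 2, 3, 4 and 6 and Dp16 replicates 1, 3, 4 and 6. Dp16 2xIFNRs and Dp16 differed by 0.19 ± 0.15 (edgeR adjusted p = 0.8496), with a 95% permutation interval of -0.08 to 0.48.

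Most macrophage markers, like Il10ra, were higher in both genotypes than in wild-type. Of the 18 markers 11 were higher in Dp16 and 14 in Dp16 2xIFNRs than in wild-type, and none was at 0 counts. Median log2 folds were 0.58 and 0.70, and 3.17% of all genes tested were called higher in each comparison. Csf1r (-0.03) and Cd163 (0.16) were not called in Dp16 (edgeR adjusted p = 0.9065 and 0.8484). Lyz2, a lysozyme of macrophages, had 16.4 to 29.0 RPKM in wild-type, 38.5 to 53.7 in Dp16 and 33.7 to 57.2 in Dp16 2xIFNRs. T, B and NK cell markers had summed levels of 86.9 to 155 CPM in wild-type, 217 to 764 in Dp16 and 156 to 542 in Dp16 2xIFNRs. Of the 14 tested 6 and 3 were called higher, beside the same share of all genes tested. The part of these cells in the Il10ra difference was not tested. In bulk tissue more cells of a type and more RNA per cell cannot be told apart.

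Ifnlr1 (chromosome 4, 135686287 to 135708181), the specific chain for type III interferons, had 0.377 to 0.637 RPKM in wild-type, 0.413 to 0.845 in Dp16 and 0.505 to 0.792 in Dp16 2xIFNRs, with medians of 0.532, 0.647 and 0.706. All groups overlapped. Log2 folds against wild-type were 0.28 ± 0.16 in Dp16 and 0.36 ± 0.16 in Dp16 2xIFNRs (edgeR adjusted p = 0.4203 and 0.2379).

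Il22ra1, the interleukin-22 chain 20.0 kb from Ifnlr1, had 0.380 to 1.59 RPKM in wild-type, 0.108 to 1.13 in Dp16 and 0.506 to 1.23 in Dp16 2xIFNRs, with medians of 0.586, 0.699 and 0.713. The lowest value was 1 Dp16 female (replicate 3) with 13 counts. No genotype comparison was called, and the 95% permutation interval of Dp16 against wild-type ran from -1.35 to 0.62. Il20rb (chromosome 9, 100457719 to 100486788), the interleukin-20 chain, had 0.0433 to 0.314 RPKM in wild-type, 0.0788 to 0.260 in Dp16 and 0.0822 to 0.259 in Dp16 2xIFNRs. Its interval for Dp16 against wild-type was -0.275 to 0.975. That interval holds the Dp16 log2 folds of all 4 segment chains, while the interval of Il22ra1 ends below those of Ifnar2 and Ifngr2.

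Chain ratios within each receptor were compared as log2 ratios of counts per animal, and 6 ratios in 3 comparisons gave 18 tests. Animals were permuted within sex, all 400 ways, two-sided, so that 0.005 is the smallest possible p, and p-values were adjusted over the 18. Of the 18 6 passed. The 3 ratios against the segment chain Il10rb share its counts, and the 3 comparisons share animals.

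For the interferon gamma receptor the balance shifted toward the segment chain. The RPKM ratio of Ifngr2 to Ifngr1 was 0.403 to 0.455 in wild-type (median 0.442), 0.528 to 0.740 in Dp16 (median 0.616) and 0.384 to 0.512 in Dp16 2xIFNRs (median 0.450). All 6 Dp16 animals stood above all others. Dp16 exceeded wild-type by 0.52 in log2 ratio (exact permutation p = 0.005, adjusted p = 0.0225, interval 0.345 to 0.685 at 95%). From Dp16 to Dp16 2xIFNRs it changed by -0.49 (exact permutation p = 0.005, adjusted p = 0.0225, interval -0.725 to -0.23 at 95%). Ifngr2 nonetheless had fewer reads per kilobase than Ifngr1 in every animal. With all annotated exons as the length the ratio was closer to even. Its medians were then 0.586 in wild-type, 0.817 in Dp16 and 0.597 in Dp16 2xIFNRs, with a Dp16 maximum of 0.982. Dp16 2xIFNRs and wild-type differed by 0.03 (95% interval -0.17 to 0.205, exact permutation adjusted p = 0.7994).

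In the type I receptor, where both chains are on the segment, no ratio test passed. The RPKM ratio of Ifnar1 to Ifnar2 was 0.847 to 1.03 in wild-type (median 0.947), 0.621 to 0.999 in Dp16 (median 0.856) and 0.840 to 1.03 in Dp16 2xIFNRs (median 0.907). With all annotated exons as the length these medians were 0.654, 0.591 and 0.626. The log2 difference of Dp16 from wild-type was -0.22 (95% interval -0.465 to 0.025, exact permutation p = 0.085, adjusted p = 0.153). The lowest Dp16 ratios were in females, 0.621 to 0.827, against 0.885 to 0.999 in Dp16 males.

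For the interleukin-10 receptor the ratio differed in Dp16 2xIFNRs and not detectably in Dp16. Il10rb exceeded Il10ra by 15.8 to 38.1 times in RPKM in wild-type (median 23.5), 17.2 to 36.1 in Dp16 (median 24.3) and 9.15 to 18.5 in Dp16 2xIFNRs (median 13.9). With all annotated exons as the length these medians were 11.4, 11.8 and 6.77, and the differences between groups are the same on either length. The groups overlapped. Females had the higher median ratio in each genotype, although the sexes overlapped in wild-type and in Dp16, and this was not tested. The ratio in Dp16 2xIFNRs was 0.587 times that of wild-type, a log2 difference of -0.77 (exact permutation p = 0.005, adjusted p = 0.0225, interval -1.15 to -0.39 at 95%). Against Dp16 the difference was -0.81 (exact permutation p = 0.005, adjusted p = 0.0225, interval -1.14 to -0.47 at 95%). Dp16 and wild-type differed by 0.04, with a 95% interval of -0.39 to 0.47 (exact permutation adjusted p = 0.805). Both calls were lost when animals were permuted over both sexes (adjusted p = 0.07792 against wild-type and 0.05195 against Dp16). In Dp16 both chains were higher, and in Dp16 2xIFNRs Il10ra was higher while Il10rb stayed near wild-type. Most macrophage markers were also higher than wild-type in both genotypes, as given above. Between Dp16 2xIFNRs and Dp16 0 of the 18 were called, where 0.0171% of all genes tested were called. Their median log2 fold there was 0.01. The part of these cells in the ratio was not tested.

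Il10rb relative to the epithelial chains was lower in Dp16 2xIFNRs than in Dp16. The RPKM ratio of Il10rb to Ifnlr1 had medians of 38.9 in wild-type (21.9 to 64.8), 47.1 in Dp16 (29.5 to 94.7) and 29.5 in Dp16 2xIFNRs (20.1 to 42.5), or 18.9, 22.9 and 14.3 with all annotated exons as the length. Dp16 2xIFNRs differed from Dp16 by -0.70 on the log2 scale (exact permutation p = 0.01, adjusted p = 0.036, interval -1.15 to -0.29 at 95%). This call was lost without any 1 of Dp16 2xIFNRs replicates 1, 2 and 6 or Dp16 replicates 3 and 6 (adjusted p up to 0.09), and with animals permuted over both sexes (adjusted p = 0.1481). Against wild-type, Dp16 was at 0.34 and Dp16 2xIFNRs at -0.37 (exact permutation adjusted p = 0.1636 and 0.135), the latter passing without Dp16 2xIFNRs replicate 3 (adjusted p = 0.03857).

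The ratio of Il10rb to Il22ra1 had medians of 29.7 in wild-type (8.75 to 68.5), 52.9 in Dp16 (21.2 to 363) and 26.5 in Dp16 2xIFNRs (12.6 to 51.8), or 14.4, 25.7 and 12.9 with all annotated exons as the length. The Dp16 maximum is the female with 13 counts of Il22ra1. Dp16 2xIFNRs differed from Dp16 by -1.16 (exact permutation p = 0.015, adjusted p = 0.045, interval -2.22 to -0.355 at 95%). The call was lost without Dp16 2xIFNRs replicates 1, 2, 4, 5 or 6 or Dp16 replicates 3 or 6, and the difference was -0.81 without Dp16 replicate 3. Permuting over both sexes gave an adjusted p of 0.3458. Dp16 against wild-type was 0.97 (95% interval -0.025 to 2.015, exact permutation adjusted p = 0.135), and without wild-type replicate 1 it passed (1.16, adjusted p = 0.03). No comparison of Il20rb to Il22ra1 passed, with medians of 0.241, 0.311 and 0.279 in wild-type, Dp16 and Dp16 2xIFNRs.

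**Figure D4:**
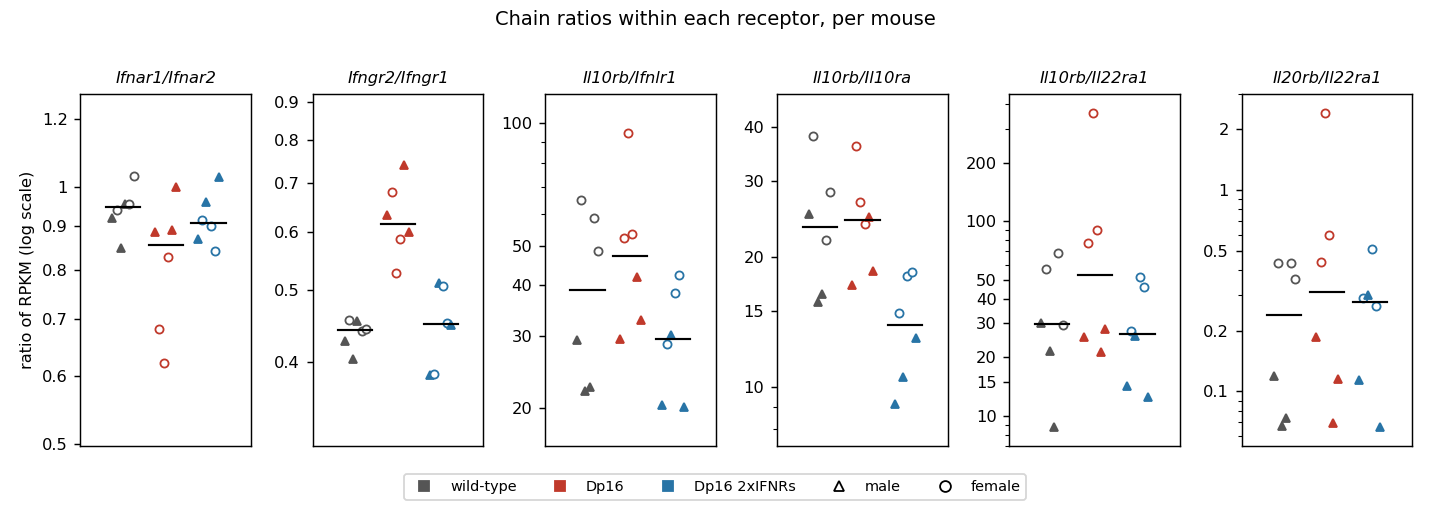
Ratio of RPKM (log scale, separate scales per panel) of the chain pairs of each receptor in each kidney, with triangles for males, circles for females and bars for group medians. Only Ifngr2/Ifngr1 separates Dp16 from both other groups in all animals, and Il10rb/Il10ra is lowest in Dp16 2xIFNRs.

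Several chain levels differed by sex. In males against females 5 of the 9 chains were called, 2 higher and 3 lower, where 38.8% of all genes tested were called (19% higher and 19.7% lower). A share of that size is close to the background. Normalization matters for this comparison: TMM factors were 0.931 to 0.991 in males and 1.03 to 1.07 in females, and with total counts the median gene moved by -0.12 on the log2 scale. The folds given for sex use TMM, and the RPKM do not.

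Il10rb differed most reliably, with 22.8 to 39.1 RPKM in females (median 26.3) and 13.9 to 25.5 in males (median 15.5). Within each genotype the 3 females stood above the 3 males. The log2 fold of males was -0.56 ± 0.06 (n = 9 per sex, edgeR adjusted p = 1.72e-07), close in size to the Dp16 rise of this gene. Dp16 males had 23.9 to 25.5 RPKM and wild-type females 24.4 to 26.1. Ifnar2, next to it on the chromosome, was lower in males by -0.20 ± 0.04 (edgeR adjusted p = 0.001099).

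Il22ra1 and Il20rb went opposite ways. Il22ra1 had 0.108 to 0.869 RPKM in females (median 0.485) and 0.525 to 1.59 in males (median 0.981), so that males were 1.10 ± 0.28 higher (log2, edgeR adjusted p = 0.004054). Il20rb had 0.154 to 0.314 RPKM in females (median 0.212) and 0.0433 to 0.182 in males (median 0.105), with a male difference of -0.95 ± 0.26 (log2, edgeR adjusted p = 0.00659). The ranges of the sexes overlap in both genes. The RPKM ratio of Il20rb to Il22ra1 was therefore 0.266 to 2.41 in females (median 0.435) and 0.0668 to 0.302 in males (median 0.114). The ratio of Il10rb to Il22ra1 was 27.2 to 363 in females and 8.75 to 30.2 in males. Neither ratio was tested between the sexes.

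Ifnlr1 was 0.35 ± 0.13 higher in males (edgeR adjusted p = 0.04301), and 15 of 25 alternatives did not call it. Of these, 11 left out 1 library. Ifngr1, Ifngr2, Ifnar1 and Il10ra were not called, with log2 folds of 0.10, 0.13, -0.07 and 0.03. With total-count scaling Ifngr1 (-0.02) and Il10ra (-0.09) changed sign. Among epithelial markers, 4 of 11 of the proximal tubule were higher and 4 lower in males. Of 10 of the collecting duct 4 were lower. Over all genes tested 19% were higher and 19.7% lower. Also lower were 5 of 8 markers of the loop and distal tubule, 6 of 6 of podocytes and 2 of 7 of urothelium. Outside the epithelia 9 of 11 endothelial and 7 of 7 stromal markers were lower, and 0 of 18 macrophage markers were called. The part of cell makeup in these sex differences was not tested.

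Genotype effects were not called different between the sexes in any chain. In 18 interaction tests over 9 chains edgeR called 0 and 1 had an unadjusted p under 0.05, where 0.0171% of all genes tested were called for Dp16 and 0.00569% for Dp16 2xIFNRs. That was Ifnar1, whose Dp16 difference was 0.76 in males and 0.40 in females, an interaction of 0.35 ± 0.14 (unadjusted p = 0.0213, edgeR adjusted p = 0.6313).

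Ligand transcripts were at or near 0 counts. None of 26 interferon and interleukin-10 family ligand genes passed the filter, and 20 had 0 counts in all 18 libraries, which allows up to 0.00323 CPM (3 counts over all totals, counting error only). The type I genes at 0 included all listed interferon alpha genes and Ifnb1. Ifng, the interferon gamma gene made by T and NK cells, had 54 counts in all: 15 in wild-type, 20 in Dp16 and 19 in Dp16 2xIFNRs. Ifnz had 24, of which 17 in Dp16, and Il10 had 5. Among relatives of the chains only F3, tissue factor, was tested and not called, with Il20ra at 23 and the decoy receptor Il22ra2 at 7 counts in all.

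Jak1, a kinase bound to most of these receptors, had 28.3 to 31.6 RPKM in wild-type, 26.7 to 33.0 in Dp16 and 31.2 to 35.0 in Dp16 2xIFNRs. The groups overlap, and edgeR called it in no genotype comparison, with log2 folds of -0.02 ± 0.06 in Dp16 and 0.12 ± 0.06 in Dp16 2xIFNRs against wild-type (edgeR adjusted p = 0.8951 and 0.2724). Jak2, the kinase at Ifngr2, had 5.78 to 11.9 RPKM in wild-type, 5.64 to 10.5 in Dp16 and 5.31 to 8.93 in Dp16 2xIFNRs. Its log2 folds against wild-type were -0.21 ± 0.09 in Dp16 and -0.26 ± 0.09 in Dp16 2xIFNRs, also not called (edgeR unadjusted p = 0.02552 and 0.006746, adjusted p = 0.2033 and 0.09306). Tyk2, at Ifnar1, had 2.40 to 3.28 RPKM over all animals, with log2 folds of 0.00 in both (edgeR adjusted p = 0.9885 and 0.9896). These 3 kinases were chosen for naming after their values were seen. Against wild-type 3.17% of all genes tested were called higher in each genotype. Of 7 negative regulators 1 was called, in Dp16 only: Usp18, which blocks signalling at Ifnar2. It was 0.63 ± 0.15 higher in Dp16 (log2, edgeR adjusted p = 0.01682) and 0.30 ± 0.15 in Dp16 2xIFNRs (edgeR adjusted p = 0.279) against wild-type. Between Dp16 2xIFNRs and Dp16 0 of the 7 regulators were called, where 0.0171% of all genes tested were called. Their log2 folds there were -0.33 to 0.13, and 1 was lower at an unadjusted p under 0.05.

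Part of the genes induced by interferon were higher in both genotypes than in the wild-type animals that both comparisons share. Of 20 type I targets 8 were higher in Dp16 and 4 in Dp16 2xIFNRs, and none lower, with median log2 folds of 0.36 and 0.29, where 3.17% of all genes tested were called higher in each comparison. Lgals3bp, a secreted glycoprotein gene, had 29.4 to 55.9 RPKM in wild-type, 46.4 to 74.0 in Dp16 and 47.1 to 65.8 in Dp16 2xIFNRs. It was 0.61 ± 0.10 and 0.59 ± 0.10 higher on the log2 scale (edgeR adjusted p = 0.0008907 and 0.001319), with overlap in both. Uba7, the enzyme that activates Isg15, was 0.64 ± 0.11 and 0.51 ± 0.11 higher (edgeR adjusted p = 0.001682 and 0.008843). Of 20 interferon gamma targets 5 and 4 were higher and none lower, with medians of 0.32 and 0.28. Cd74, the class II invariant chain, was 0.59 ± 0.10 and 0.53 ± 0.10 higher (edgeR adjusted p = 0.001313 and 0.00268), with both groups above wild-type in all animals. Antigen-presenting cells also carry Cd74 and H2-Eb1, and most macrophage markers above were also higher in both genotypes. The part of these cells was not tested.

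Between Dp16 2xIFNRs and Dp16, where the labels give receptor dosage as the difference, edgeR called 0 of either list of 20. Over all genes tested 0.0171% were called there, so the 0 is near that share. At an unadjusted p under 0.05 there were 3 lower type I targets and 1 higher interferon gamma target. Median log2 folds were -0.12 and -0.03, against 0.00 over all genes tested. The largest type I target difference was -0.41. Against wild-type, where 3.17% of all genes tested were called higher in each genotype, 7 targets of interleukin-10 and interleukin-22 were also tested. Of these only Lcn2, lipocalin-2 of injured tubules, was called. It was 1.04 ± 0.15 higher in Dp16 and 0.84 ± 0.15 in Dp16 2xIFNRs than in wild-type (edgeR adjusted p = 0.0003766 and 0.002466).

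Genes most like each chain across the 18 libraries were found from log2 CPM with genotype and sex removed, by Pearson correlation. This is a description over animals that share libraries and scaling. The r given are the highest of all genes searched, and none was tested against chance. Ifnar1 was closest to Brpf1 (r = 0.946), Maml1 (0.909) and Rictor (0.907). For Ifnar2 the highest r were lower, with Gbe1 at 0.762, Nat8l at 0.754 and mt-Co3 at 0.713. For Ifngr2 these were Mpg (0.843), Coq10a (0.806) and Slc40a1 (0.803), and for Il10rb Apcdd1 (0.808), Max (0.795) and Degs2 (0.780). Ifngr1 went with Bloc1s3 (0.886), Fkbp2 (0.870) and Apela (0.856).

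Among the scarce chains Il10ra was closest to Plekho2 (0.848), Neurl3 (0.831) and Mob3a (0.807). Ifnlr1 was closest to Fadd (0.882), Pde9a (0.834) and Leng8 (0.833), Il22ra1 to Cep290 (0.850), Lzts3 (0.849) and Mgat3 (0.827), and Il20rb to Impa1 (0.817), Kcp (0.804) and Tmem136 (0.800). Partners did not track each other closely: Ifnar1 and Ifnar2 had r = -0.08 and Ifngr1 and Ifngr2 0.295. The highest r between chains was that of the neighbours Ifnlr1 and Il22ra1, at 0.647. Ifnar1 and Il22ra1, on different chromosomes, had 0.623, and the neighbours Ifnar2 and Il10rb -0.069.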

How the data were processed

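PolyA RNA of whole kidney was sequenced as paired reads from strand-specific libraries, per the labels' protocols. The submitters' processing notes name the build GRCm38 and these tools: HTSeq 0.6.1, HISAT2 2.1.0, SAMtools 1.5, FastQC 0.11.5 and bcl2fastq. The strand and overlap settings of the counting are not given in the sources used here. The authors deposited raw counts per gene, not normalized, and RPKM values of the same genes scaled by library total and gene length. The counts were tested with edgeR 4.0.16 (quasi-likelihood, TMM, R 4.3.3) in 1 fit of 18 libraries with group and sex, after a filter by group (minimum count 10, minimum total 15) that removed 37810 genes. Two-sided p-values took Benjamini-Hochberg adjustment, with a threshold of 0.05. The SE of a log2 fold is approximate, and the biological coefficient of variation was 16.8%. Chain ratios were taken as log2 of counts with 0.5 added and tested by exact permutation within sex, with 95% intervals from inverting the test. RPKM were used for levels between genes.

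Positions came from GENCODE M21 and promoters from RefSeq. Steps were tested on simulated data. Nothing says that the animals of a group came from separate litters, so p-values measure the spread between these mice. The last number of the sample description is shared by some animals of different groups. The main fit leaves this description number out. As a random block in limma-voom it had a consensus correlation of 0.078. No 2 libraries were duplicates. The members and all gene lists were chosen with earlier results of these data known. The counts for the list of signalling genes downstream of the chains are not reported here. Named are all 9 chains, per list up to 3 called genes of smallest p or else the most abundant, flanking genes, and the 3 genes most correlated with each chain (average log2 CPM of at least 2). Alternatives were DESeq2 1.42.0, limma-voom with the description number, limma-trend (limma 3.58.1) on RPKM plus 0.1, RLE size factors, other filters (none, or mean log2 CPM from 1 up), leaving out sex, adding age, a block by sample number, 2 groups alone, and leaving out each library.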

Additional observations from a re-analysis of the deposited data

How the results depend on the processing

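Over 811 alternatives for the log2 folds of single chains, 741 kept their sign and side of the threshold, 41 lost a call and 9 gained one. The other 20, in 6 comparisons of single chains that were called neither way, changed sign, from log2 folds of at most 0.10 in size to at most 0.18. Chains called in Dp16 against wild-type numbered 5, or 3 without sex as a term and 4 to 5 with 1 library left out. In Dp16 2xIFNRs against wild-type the 2 called became 1 with no filter on low counts, without sex as a term and with the 2 groups alone, and were 1 to 2 with 1 library left out. In males against females the 5 called became 3 with only genes of mean log2 CPM from 1 up, which removed Il22ra1 and Il20rb from the test. Ratio tests that passed numbered 6, or 2 with animals permuted over both sexes, and 4 to 7 with 1 library left out. That permutation leaves the differences at -0.77 (adjusted p = 0.07792) and -0.81 (0.05195) for Il10rb/Il10ra in Dp16 2xIFNRs against wild-type and Dp16, at -0.70 (0.1481) for Il10rb/Ifnlr1 and at -1.16 (0.3458) for Il10rb/Il22ra1 against Dp16, none of them passing. With 1 library left out, Il10rb/Ifnlr1 ran from -0.46 to -0.29 in Dp16 2xIFNRs against wild-type and from -0.80 to -0.56 against Dp16. Il10rb/Il22ra1 ran from 0.63 to 1.17 in Dp16 against wild-type and from -1.36 to -0.81 in Dp16 2xIFNRs against Dp16. The cause of these changes was not tested.

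Sample numbers are shared across groups. The check over 18 pairs of same-numbered libraries gave correlations of -0.165 to 0.202, of which 7 were over 0.1, so the numbers were not taken as pairs. With the sample number as a block, 4 chains were called in Dp16 against wild-type (Il10ra was lost), 2 in Dp16 2xIFNRs against wild-type, 3 in Dp16 2xIFNRs against Dp16 and 5 between the sexes (Ifngr2 gained, Ifnlr1 lost). In the interaction fit, leaving out each library, chosen after the data were seen, called 0 chains throughout. Counts were lowest for Il20rb (7 to 46 per library) and Il22ra1 (13 to 213), and the part of depth in their spread was not tested.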
